A study of Mus musculus with 20 samples.

Results

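The members described here are the splicing factors and heterogeneous nuclear ribonucleoproteins (hnRNPs) of liver, grouped into 7 families by symbol. They are the protein-coding genes whose symbol, ignoring case, starts with SRSF, SF3A, SF3B, PRPF or LSM and a digit, with SNRP and a letter or digit, with U2AF, or with HNRNP, except HNRNPD. The rule found 89 of the 60607 genes in the table of human genes and 80 of the 55335 genes in the table of mouse genes. The 89 human members were 12 SRSF, 26 HNRNP, 9 SF3A or SF3B, 12 SNRP, 4 U2AF, 13 PRPF and 13 LSM genes. The 80 mouse members were 11 SRSF, 19 HNRNP, 9 SF3A or SF3B, 12 SNRP, 3 U2AF, 13 PRPF and 13 LSM genes.

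Introns are removed from pre-mRNA by the spliceosome, which is built on each intron from small nuclear ribonucleoproteins (snRNPs) that carry a ring of Sm or LSm proteins. U2AF and the SF3A and SF3B complexes define the 3′ end of the intron and its branch point, and the PRPF proteins act in the joining and the rearrangement of the snRNPs. SR proteins (SRSF genes) and hnRNPs bind the pre-mRNA itself and help to choose which sites are used, and HuR, an RNA-binding protein that recognises U-rich and AU-rich stretches of mRNA, shares many of their transcripts.

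The study compared HuR knockdown (HuR KD) with a control virus (LacZ) in a humanized and in a normal mouse liver. The humanized mice were TK-NOG mice, immunodeficient NOG mice with a thymidine kinase transgene under a mouse albumin promoter, which were given ganciclovir (25 mg/kg) at 8 to 9 weeks of age to remove their own hepatocytes. They then received 1000000 human hepatocytes and were used 8 to 12 weeks later, when human albumin in serum passed 0.5 mg/ml; the other cells of these livers are those of the mouse host. Wild type (WT) mice were male C57BL/6, bought at 8 weeks. HuR KD was an adenovirus with an shRNA against HuR, human for the 4 humanized and mouse for the 6 WT mice, and 4 humanized and 6 WT mice received the LacZ virus. All mice were given 2000000000 pfu, and total RNA of the livers was sequenced 7 days later, following 4 h without food. The humanized and the WT livers also differed in host, shRNA and read length, which cannot be told apart from the species of the mRNA.

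Expression is given as TPM (transcripts scaled to a fixed library total), which is per gene length and adds up to 1000000 in each library, over human genes alone in the humanized livers. Between 2670469 and 20302454 reads on genes were recovered from the steps of the TPM values in humanized livers, and between 1423985 (LacZ replicate 2) and 44668272 in WT livers. The deviations of HuR KD replicate 4 and LacZ replicate 2 of the humanized livers from their group means went together (r = 0.53), and these were the libraries with the most reads. Mitochondrial ribosomal RNA held 49.1% of TPM in each of them, 27.2 to 36.0% in the other humanized livers and 0.0% in WT livers. Protein-coding genes held 28.9 to 37.8% of TPM in humanized and 75.6 to 77.6% in WT livers. HuR mRNA was lower in all HuR KD livers than in all LacZ livers of both sets, at a mean of 3.46 against 5.67 TPM for human ELAVL1 and of 4.91 against 9.50 TPM for mouse Elavl1. Hepatocyte markers were abundant in both tables, with 0 of 8 called in humanized and 0 of 6 in WT livers.

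The 3′ untranslated regions (3′ UTRs) of the mouse members were searched for runs of 7 or more T, the DNA letters of the U-rich stretches that HuR is known to recognise, on the strand of the mRNA. Such a run was found in 39 of the 78 members tested (50.0%), against 42.0% of 11064 mouse protein-coding genes with a 3′ UTR of at least 50 bases. Of the 12 mouse members that passed the test described below, 5 hold one, a share near the 42.0% of all genes. The 30 bases around the longest run of each of these 5 follow as examples, with the run in capitals. Each lies in the 3′ UTR in the last exon, on the plus strand of GRCm38, and the transcripts are those of GENCODE M21.
Srsf9, Srsf9-201, chr5:115332804-115332833, exon 4 of 4: gtcttaggacaTTTTTTTTcttttctttcc
Sf3a1, Sf3a1-201, chr11:4180574-4180603, exon 16 of 16: ttttggtgggTTTTTTTTTTgtttttaatt
Hnrnpl, Hnrnpl-211, chr7:28821972-28822001, exon 14 of 14: tgtttggTTTTTTTTTTTTTTTTcttgttt
Hnrnpf, Hnrnpf-210, chr6:117925578-117925607, exon 1 of 1: tgttaactaaaTTTTTTTcttaaaataaag
Snrpd3, Snrpd3-201, chr10:75536783-75536812, exon 4 of 4: catgcttagaTTTTTTTTTTaattcacttt
Binding by HuR was not measured, and a run of T is a match of letters only. The longest of these runs is the 16 T of Hnrnpl, in a stretch of 30 bases that starts at base 66 of a 3′ UTR of 360 bases.

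In WT control livers the abundance of the members spanned from 0.0317 TPM to over 100 TPM. The most abundant SR protein was Srsf5, at 125 ± 11.5 TPM (SD, n = 6), followed by Srsf2 at 96 ± 5.52 TPM, a pair whose ranges (111 to 141 and 90 to 105 TPM) did not overlap. Hnrnpab, at 104 ± 6.65 TPM, and Hnrnpk, at 90.7 ± 11 TPM, led the hnRNPs, and their ranges overlapped. Prpf8, the large scaffold protein of the U5 snRNP at the catalytic centre, stood at 104 ± 3.93 TPM, and the other PRPF genes reached at most 47.3 TPM. Sf3b1 (61 ± 4.22 TPM), the subunit that holds the branch point, and Snrpb (49.4 ± 4.88 TPM), which encodes the Sm proteins B and B′, led their families. Among the LSm genes Lsm12 was highest, at 29.0 ± 2.17 TPM. The U2AF subunits were near each other, at 25.0 ± 1.20 TPM for U2af2 and 22.3 TPM for U2af1.

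In LacZ humanized livers HNRNPK was highest, at 82.7 ± 8.80 TPM (SD, n = 4), followed by HNRNPF at 61.2 ± 10.4 TPM and SF3B5, a small SF3B subunit, at 61.1 TPM (46.6 to 67.8 TPM), and the ranges of the last pair overlapped. SRSF2, at 44.6 ± 8.98 TPM, SNRPB, at 34.3 ± 9.78 TPM, LSM4, at 23.8 ± 4.95 TPM, and U2AF2, at 12.2 ± 1.32 TPM, led their families. Mouse Sf3b5 stood at 6.19 ± 0.473 TPM. The tables were normalized separately and differ in the share of TPM in protein-coding genes, so levels across them are set side by side without a test.

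**Figure D1:**
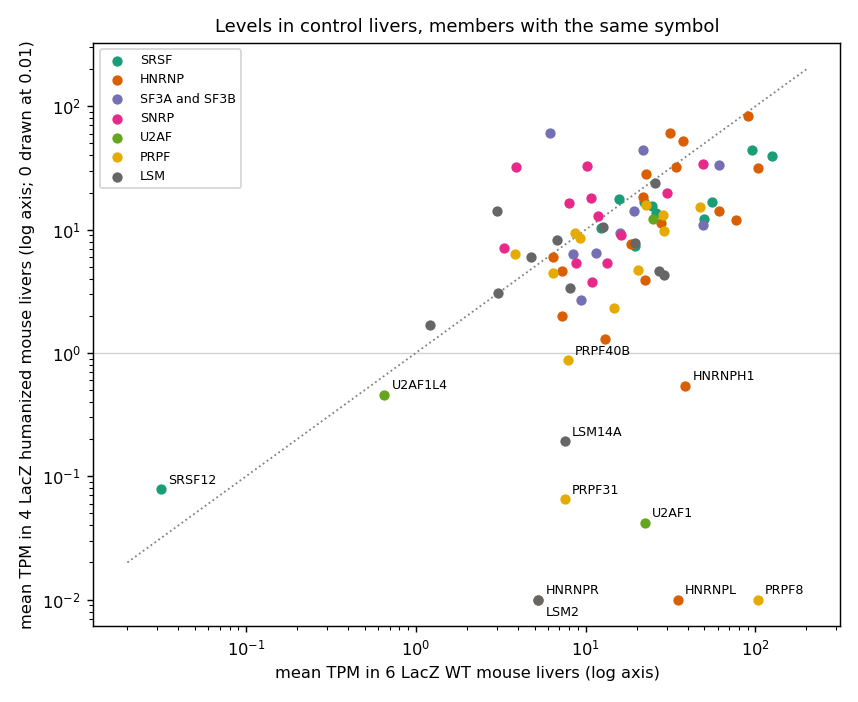
Mean TPM of each member that both tables list under the same symbol, in the 6 LacZ WT mouse livers (horizontal, log axis) and the 4 LacZ humanized mouse livers (vertical, log axis, with a mean of 0 drawn at 0.01), coloured by family. Members spread to both sides of the dotted line of equal values, and PRPF8, at 104 TPM in mouse, and HNRNPL, at 35.0 TPM in mouse, sit at the bottom edge because the human table lists them at 0 in control livers.

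Not every member could be tested. Of the 80 mouse members 78 had a mean of at least 1 TPM, and Srsf12 and U2af1l4 did not. Of the 89 human members 71 did. Of the other 18, 8 were listed at 0 in every liver: HNRNPL, HNRNPR, HNRNPCL1, HNRNPCL2, HNRNPCL3, HNRNPCL4, LSM2 and the read-through HNRNPUL2-BSCL2. PRPF8 was listed at 0 in all livers but HuR KD replicate 4, at 0.00795 TPM. U2AF1 and its near-identical copy U2AF1L5 were at most 0.122 and 0.205 TPM in any liver, PRPF31 at most 0.959 TPM, LSM14A at most 0.387 TPM and HNRNPH1 at most 1.14 TPM. The last 4 were SRSF12, HNRNPA1L2, PRPF40B and U2AF1L4. As many as 3848 human protein-coding genes were listed at 0 in every liver, so a value of 0 says here only how the gene is listed. Copies add to the uncertainty of the human values: 29 members have 192 loci named as pseudogene copies in the table, among them 75 for HNRNPA1, 20 for SNRPG and 18 for SNRPC. The 1 locus named as a copy of LSM12 held 8.24 to 18.8 TPM per liver, more than the 4.33 TPM of LSM12 itself in control livers.

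In WT mouse livers more members rose than fell with HuR KD. Of the 78 members tested, 11 were higher and 1 was lower at an unadjusted p under 0.05 in limma, the threshold of the study (15.4% in all). Over all 15090 mouse genes 16.0% were called, 9.09% higher and 6.94% lower, so the share of members called was near the background and the share called higher, 14.1%, was above it. At an adjusted p under 0.05, 2 members passed (2.56%), U2af2 and Sf3a1, against 0.888% of all genes. Without 1 liver at a time this count was 0 to 4, and 0 in 8 of the 12 fits, with U2af2 passing in 4 and Sf3a1 in 2. The log2 fold change, of TPM + 1, was above 0 in 59 of 78 members and in 8568 of all 15090 genes, with medians of 0.06 and 0.03. The count of members called higher was 7 without HuR KD replicate 4, 6 without HuR KD replicate 5 and 20 without HuR KD replicate 6. The count over all genes moved with it, at 1021 of 15084, 1032 of 15098 and 1873 of 15124 in the same fits. Without HuR KD replicate 6 and LacZ replicate 2, the libraries with the fewest reads, 25 members were called higher and 2 lower. In that fit 2323 of all 15082 genes were called higher. In HuR KD replicate 6 the members summed to 1835 TPM, the lowest of the 12 livers.

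Macrophage markers moved in the same livers. All 10 markers of the list had a lower mean with HuR KD, and 6 of 10 were called lower, against 6.94% of all genes. Their summed TPM was 482 to 818 with HuR KD and 684 to 938 with LacZ. Their part in the members' changes was not tested, and in a whole liver fewer cells of a type cannot be told apart from less RNA per cell. Of the T and NK cell markers 2 of the 6 tested were called lower, at 9.09 to 17.7 TPM in all with HuR KD and 12.4 to 25.5 TPM with LacZ. Of the stellate cell markers 1 of 7 was called lower, of the endothelial markers 1 of 6 was called higher, and 0 of the B cell, neutrophil, cholangiocyte and proliferation markers tested were called.

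The SNRP genes had a median log2 fold change of 0.16, with 10 of 12 members above 0. Of the 12, 2 were called higher (16.7%, against 9.09% of all genes) and 0 lower. Without LacZ replicate 2, the library with the fewest reads, the median was 0.11, and Snrpn, listed at 0 in that library, was called lower (-0.33, unadjusted p = 0.0118 in limma). The 7 genes of the Sm core ring (Snrpb, Snrpd1, Snrpd2, Snrpd3, Snrpe, Snrpf, Snrpg), which encircles the small nuclear RNA, were all above 0, from 0.10 to 0.33, and Snrpd2 and Snrpd3 were called. The highest was that of Snrpg, which in LacZ replicate 2 rests on 3 reads (3.24 TPM). Without this liver the 7 genes were again above 0, from 0.06 (Snrpg) to 0.20 (Snrpd2), with Snrpe at 0.10 in place of 0.25, and Snrpb (unadjusted p = 0.0262) and Snrpd2 called. The proteins that are specific to the U1 or U2 snRNP (Snrpa, Snrpc, Snrpa1, Snrpb2) had a median of -0.0035 with 0 of 4 called.

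Snrpd2 (chr7:19149722-19153542, plus strand of GRCm38) ranged from 9.66 to 10.7 TPM (median 10.3) in LacZ livers and from 11.3 to 13.4 TPM (median 11.7) with HuR KD. The groups did not overlap. The log2 fold change was 0.20 (standard error 0.05, adjusted p = 0.0989 from limma; two-sided exact permutation test, p = 0.00216, and 6 against 6 allow none smaller). Snrpd3 ranged from 6.90 to 9.31 TPM (median 7.91) in LacZ and from 7.76 to 11.6 TPM (median 9.54) in HuR KD livers, so the groups overlapped, with 3 HuR KD livers above all LacZ livers. The fitted change was 0.23 on the log2 scale (adjusted p = 0.247).

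U2AF and the SF3 complexes act next to each other at the 3′ end of the intron. Their mouse genes were all above 0: 2 of 2 U2AF genes tested, with a median of 0.22, and 9 of 9 SF3A and SF3B genes, with a median of 0.07. Of all 15090 genes 8568 were above 0, with a median of 0.03, and Sf3b1, Sf3b2, Sf3b4 and Sf3b5 lay near that median. U2af2, the large subunit that binds the pyrimidine-rich tract, rose by 0.30 (standard error 0.06, adjusted p = 0.038) and Sf3a1, a subunit that ties SF3A to the U2 snRNP, by 0.27 (standard error 0.06, adjusted p = 0.0499). Without LacZ replicate 2 the adjusted p was 0.0409 for U2af2 and 0.0554 for Sf3a1, and Sf3a2 was called higher (0.21 on the log2 scale, unadjusted p = 0.0374). The small subunit gene U2af1 ranged from 19.5 to 24.8 TPM (median 22.8) in LacZ and from 22.4 to 27.8 TPM (median 24.7) in HuR KD livers, with overlap and an unadjusted p of 0.0575 in limma.

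Sf3b3 and Sf3b6 were called higher. Sf3b6, a small protein beside the branch point, ranged from 19.6 to 24.4 TPM (median 21.8) in LacZ and from 21.9 to 26.3 TPM (median 25.1) in HuR KD livers. Sf3b3, one of the large SF3B subunits, ranged from 15.3 to 17.1 TPM (median 15.6) in LacZ and from 15.4 to 20.8 TPM (median 18.8) in HuR KD livers. Both overlapped, each with 4 HuR KD livers above all LacZ livers, at log2 fold changes of 0.16 and 0.18 and adjusted p of 0.263 and 0.24. The other 4 SF3B genes had log2 fold changes from 0.03 to 0.04, with 0 called, and the median over the SF3A and SF3B genes was 0.14 without LacZ replicate 2 and 0.23 without both libraries with the fewest reads.

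**Figure D2:**
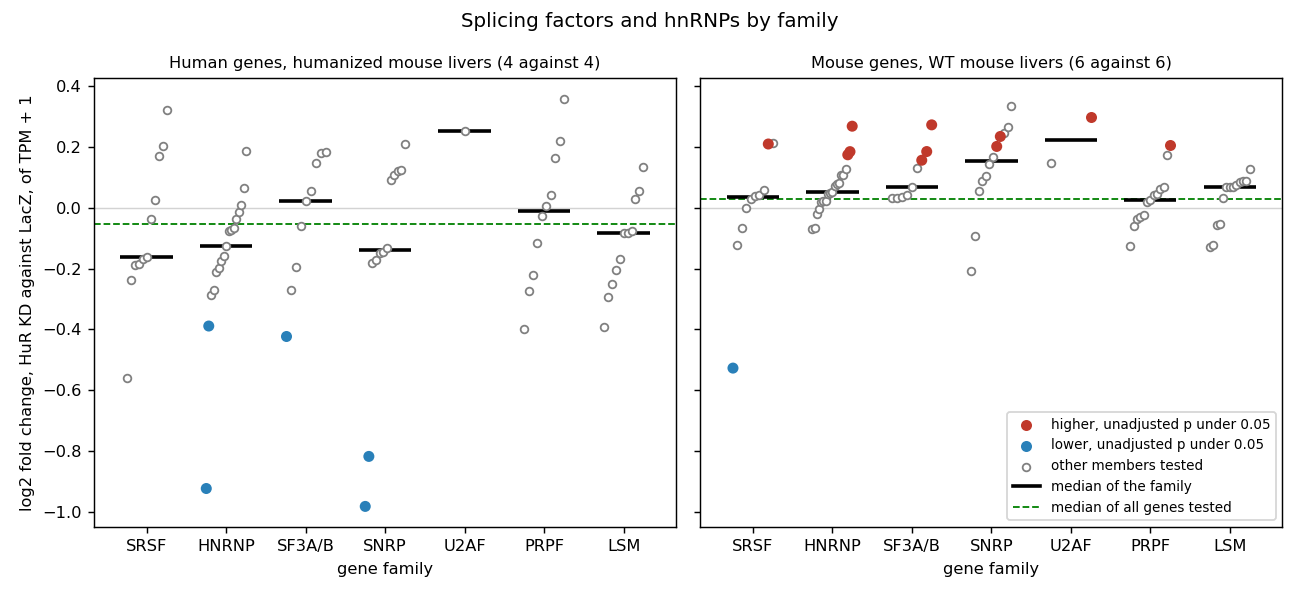
Log2 fold change of each tested member (HuR KD against LacZ, of TPM + 1) by family, for human genes in humanized livers (left) and mouse genes in WT livers (right). Filled points passed an unadjusted p under 0.05 (red higher, blue lower), black bars are family medians and the green dashed line is the median of all genes tested, at -0.05 on the left and 0.03 on the right. The 5 called human members lie below 0, and 11 of the 12 called mouse members lie above it.

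The SR protein genes held the only mouse member that fell. Srsf9 (chr5:115327177-115333080, plus strand) ranged from 22.3 to 33.9 TPM (median 24.9) in LacZ livers and from 15.7 to 23.7 TPM (median 16.7) with HuR KD. HuR KD replicate 6, at 23.7 TPM, reached into the LacZ range, and the other 5 HuR KD livers, at 15.7 to 17.8 TPM, lay below all LacZ livers. The log2 fold change was -0.53 (standard error 0.12, adjusted p = 0.0528 from limma; two-sided exact permutation test, p = 0.00649), and the mean with HuR KD was 68.2% of that with LacZ. Srsf7, which like Srsf9 binds exonic enhancers, was called higher, from 16.7 to 25.7 TPM (median 22.2) in LacZ to 23.3 to 27.8 TPM (median 25.3) in HuR KD livers, with overlap. The fitted change was 0.21, on the log2 scale (standard error 0.10, adjusted p = 0.306). The other 8 SR protein genes tested were not called, and the family median was 0.03, and -0.01 without LacZ replicate 2. Srsf5, the most abundant, ranged from 111 to 141 TPM in LacZ and from 114 to 143 TPM in HuR KD livers.

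Of 19 mouse hnRNP genes, 3 were called higher (15.8%, against 9.09% of all genes) and 0 lower, with a median of 0.05. Hnrnpl, which binds CA-rich sequence, ranged from 32 to 39.1 TPM (median 34.6) in LacZ and from 36.6 to 43.9 TPM (median 39.8) in HuR KD livers. Hnrnpdl, a relative of the AU-rich element binding hnRNPs, ranged from 28.7 to 39.8 TPM (median 33.4) in LacZ and from 36.8 to 48.5 TPM (median 40.0) in HuR KD livers. Hnrnpf, which binds runs of G, ranged from 28.4 to 33.4 TPM (median 31.4) in LacZ and from 31.6 to 39.7 TPM (median 35.3) in HuR KD livers. In each the groups overlapped, and the log2 fold changes were 0.18, 0.27 and 0.17 with adjusted p of 0.17, 0.179 and 0.214. The abundant Hnrnpab (0.08, standard error 0.09) and Hnrnpk (0.02, standard error 0.09) were not called.

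Prpf8 was the 1 PRPF gene called, of 13. It ranged from 99.1 to 109 TPM (median 102) in LacZ and from 108 to 145 TPM (median 117) with HuR KD, and 5 of 6 HuR KD livers lay above all LacZ livers. The highest value was that of HuR KD replicate 6. The log2 fold change was 0.21 (standard error 0.07, adjusted p = 0.161 from limma; two-sided exact permutation test, p = 0.00649). The other tri-snRNP genes tested, Prpf3, Prpf4, Prpf6 and Prpf31, were not called, and the median over the PRPF genes was 0.03. Without LacZ replicate 2 Prpf31 was called higher (0.24, unadjusted p = 0.00576 in limma) and the median was -0.01.

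No LSm gene passed the test, with 0 of 13 mouse genes called, a median of 0.07 and a range from -0.13 to 0.13. Lsm4, a subunit of both LSm rings, was at 22.4 to 35.1 TPM with HuR KD and at 18.5 to 21.9 TPM with LacZ, except for LacZ replicate 2 at 50.6 TPM from 31 reads. Without that liver its groups did not overlap and it was called higher, at a log2 fold change of 0.29 (unadjusted p = 0.0168 in limma), against 0.09 with it. Lsm6, another such subunit, had the smallest p, at 8.08 ± 0.873 TPM (SD, n = 6) with LacZ and 8.61 ± 0.498 TPM (SD, n = 6) with HuR KD. Of the 6 genes for LSm2 to LSm7, which are shared between the ring that decays mRNA and the ring of the U6 snRNP, 5 were above 0. Lsm1, of the decay ring, and Lsm8, of the U6 ring, had log2 fold changes of 0.07 and -0.05.

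**Figure D3:**
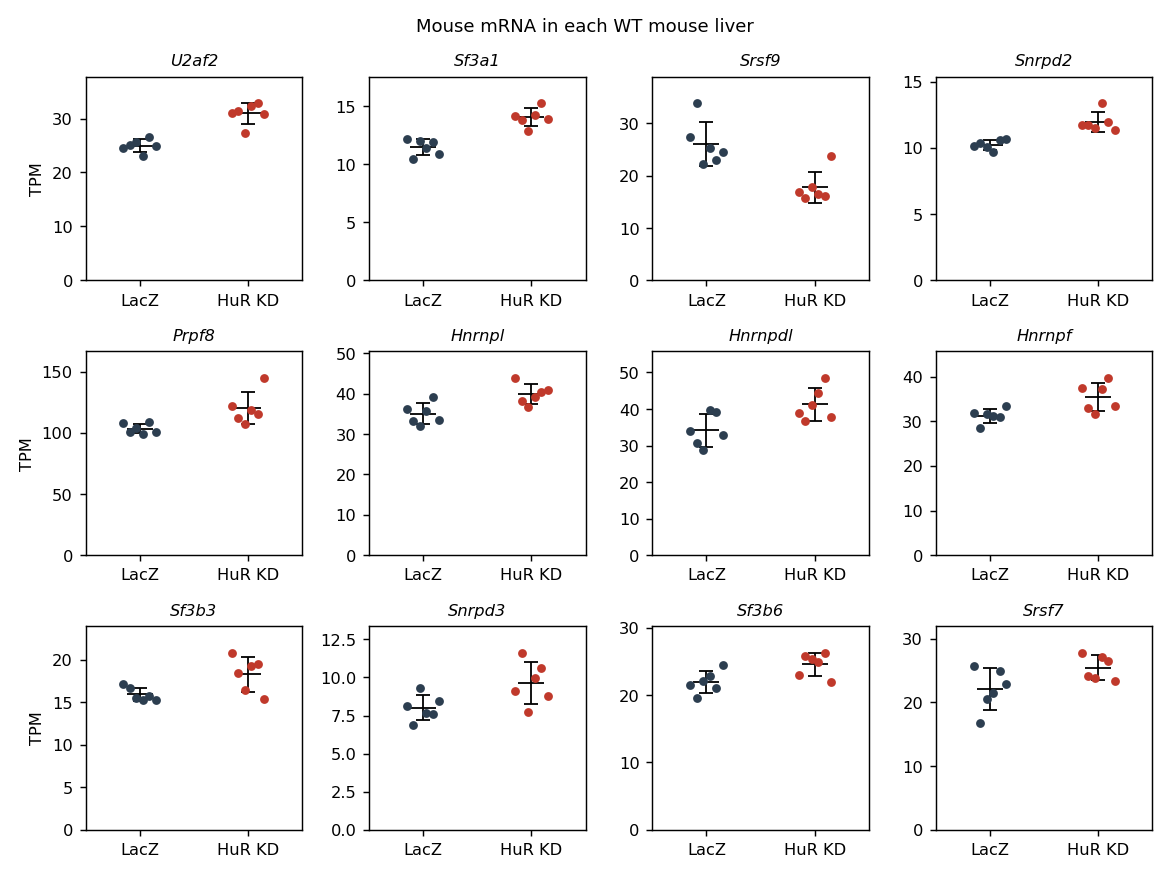
TPM of the 12 called mouse members in each of the 6 LacZ and 6 HuR KD WT livers (points), with the mean and the SD as bars, each vertical axis starting at 0. The groups are apart in U2af2, Sf3a1 and Snrpd2 and overlap in the other 9, and Srsf9 has 5 HuR KD livers below all LacZ livers.

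Some calls lay near the threshold and were lost when 1 liver was left out, for most of these genes with any of several livers. Hnrnpf was not called without HuR KD replicate 5 (unadjusted p = 0.0503), Sf3b3 without HuR KD replicate 1, 4 or 5 or LacZ replicate 4 or 6 (0.0513 to 0.064), and Snrpd3 without HuR KD replicate 2, 4 or 5 or LacZ replicate 2, 4 or 5 (0.0514 to 0.0692). Sf3b6 was not called without HuR KD replicate 2, 3, 4 or 5 or LacZ replicate 1, 2 or 5 (0.0568 to 0.0743), nor was Srsf7 without HuR KD replicate 1, 2, 4 or 5 or LacZ replicate 2, 3, 4 or 6 (0.0529 to 0.0954). The other 7 called members passed in all 12 fits that leave out 1 liver, and Hnrnpab was called higher without HuR KD replicate 6 (0.0462). Groups did not overlap in 3 of 78 members, all higher with HuR KD, against 2.49% of all genes tested, 1.25% higher and 1.23% lower.

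In humanized livers 5 of 71 members tested were called, all lower with HuR KD (7.04%). Over all 12738 human genes 11.5% were called, 3.60% higher and 7.87% lower, so the members' share was below the background in total and called lower about as often. At an adjusted p under 0.05, 0 members and 0.212% of all genes passed in limma. HNRNPA1P48 passed without LacZ replicate 2 (adjusted p = 0.0317). The members' median log2 fold change was -0.08, against -0.05 over all genes. Above 0 were 26 of 71 members and 5440 of all 12738 genes. The split depended on scaling: of all genes called, 31.3% were higher in the deposited TPM and 49.4% after median-of-ratios scaling, where 2 members were called higher and 4 lower. The count called lower was 3 without HuR KD replicate 1 or 2 or LacZ replicate 1 or 3, and 7 without the pair of libraries with the most reads. Over all genes 656 to 855 were called lower in the former fits and 1437 without the pair, against 1003 with all livers.

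No human marker of macrophages, B cells, neutrophils or endothelial cells reached a mean of 1 TPM, and C1QA, C1QB and C1QC were listed at 0 in all livers. Over all human genes 7.87% were called lower. Of cholangiocyte markers 2 of the 4 tested were called lower, with 5.26 to 29.4 TPM in all with HuR KD and 11.5 to 44.4 TPM with LacZ. Of the stellate cell markers 1 of 2 tested was called lower, and the list summed to 2.79 to 4.88 TPM with HuR KD and 5.26 to 7.37 TPM with LacZ. Their part in the members' changes was not tested.

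Of the 12 human SNRP genes tested, 2 were called, both lower (16.7%, against 7.87% of all human genes). SNRPD3 was at 10.8, 5.45, 11.6 and 8.39 TPM in the HuR KD livers (replicates 1 to 4) and at 16.1, 12, 17.4 and 20.2 TPM in the LacZ livers. All HuR KD livers lay below all LacZ livers, and the mean with HuR KD was 55.1% of that with LacZ. The log2 fold change was -0.82 (standard error 0.24, adjusted p = 0.225 from limma; two-sided exact permutation test, p = 0.0286, and 4 against 4 allow none smaller).

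SNRPN, the Sm protein of an imprinted locus whose transcript also carries SNURF, was at 3.57, 1.28, 4.42 and 3.91 TPM with HuR KD and at 5.87, 5.97, 7.99 and 8.79 TPM with LacZ. These groups did not overlap either, with a fitted log2 change of -0.98 (standard error 0.28, adjusted p = 0.208). How the counting shared reads between overlapping genes is not given in the sources used here, so the value of SNRPN is uncertain, and in the least sequenced livers it rests on as few as 9 reads. In WT livers Snrpn was 3.33 ± 1.70 TPM with LacZ, listed at 0 in replicate 2, and 2.98 ± 0.54 TPM with HuR KD (SD, n = 6 each). Its log2 fold change was 0.06 with LacZ replicate 2 and -0.33 without it. The other 10 human SNRP genes were not called, with SNRPD2 at a log2 fold change of 0.12 and SNRPB at 0.21.

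HNRNPA1 and a copy of it were the hnRNPs called. HNRNPA1P48, which the table types as protein coding although its symbol is that of a pseudogene, was at 3, 4.03, 4.6 and 3.61 TPM with HuR KD and at 8.15, 6.63, 8.71 and 8.92 TPM with LacZ. The groups did not overlap, with a fitted log2 change of -0.92 (standard error 0.16, adjusted p = 0.0573). HNRNPA1, which binds exonic silencers, was at 13.1, 10.7, 15.1 and 17.1 TPM with HuR KD and at 21.1, 18, 18 and 16.7 TPM with LacZ, with overlap through HuR KD replicate 4 and LacZ replicate 4. The fitted change was -0.39, on the log2 scale (standard error 0.16, adjusted p = 0.401). Reads of the near-identical copies could be split between these loci, so neither value is certain. The other 15 hnRNP genes tested were not called, and the family median was -0.12.

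**Figure D4:**
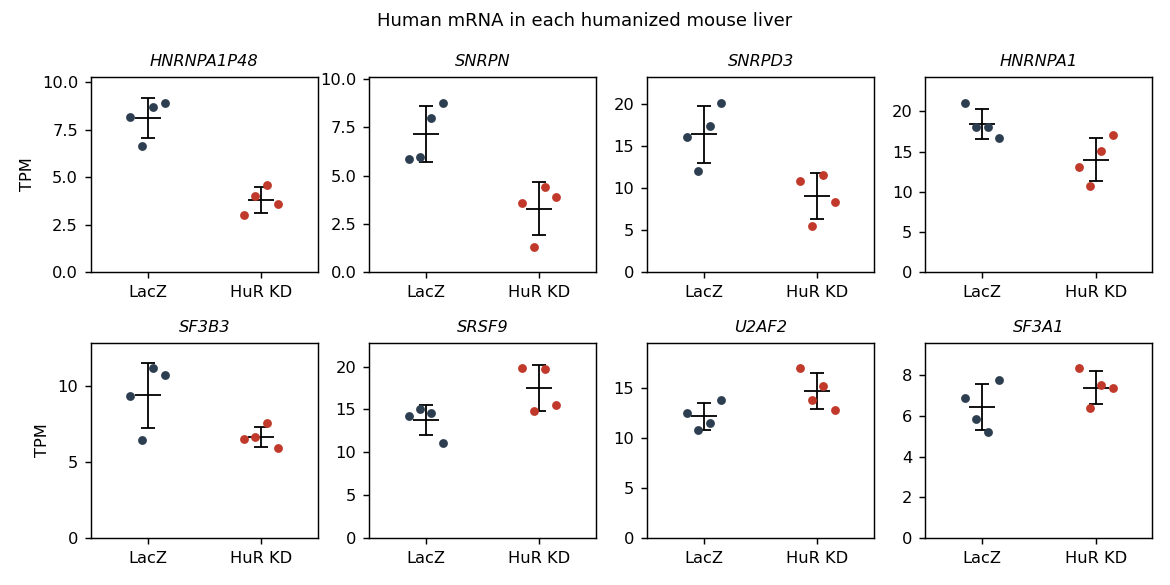
TPM of the 5 called human members and of SRSF9, U2AF2 and SF3A1 in each of the 4 LacZ and 4 HuR KD humanized livers (points), with the mean and the SD as bars, each vertical axis starting at 0. HNRNPA1P48, SNRPN and SNRPD3 have all HuR KD livers below all LacZ livers, and the other 5 genes overlap.

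Of the SF3 genes SF3B3 was called lower. It was at 6.51, 6.59, 7.51 and 5.89 TPM with HuR KD and at 9.30, 6.40, 11.1 and 10.7 TPM with LacZ, and LacZ replicate 2 lay among the HuR KD livers. On the log2 scale it changed by -0.42 (standard error 0.18, adjusted p = 0.413). SF3A1 was at 7.40 ± 0.804 TPM with HuR KD and 6.43 ± 1.14 TPM with LacZ (SD, n = 4 each), a log2 fold change of 0.18 with adjusted p of 0.71. The median over the 9 SF3A and SF3B genes was 0.02, and 5 of 9 were above 0.

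The only U2AF gene tested, U2AF2, was at 17.0, 13.8, 15.2 and 12.8 TPM with HuR KD and at 12.5, 10.8, 11.5 and 13.9 TPM with LacZ, with overlap. Its log2 fold change was 0.25 (standard error 0.14, unadjusted p = 0.104 in limma), and after median-of-ratios scaling 0.33 with unadjusted p of 0.0237. SRSF9 was at 19.8, 14.8, 19.7 and 15.5 TPM with HuR KD and at 14.3, 15, 14.6 and 11.1 TPM with LacZ, with 3 of 4 HuR KD livers above all LacZ livers. Its log2 fold change was 0.32 (standard error 0.16, unadjusted p = 0.0669), and 0.40 after median-of-ratios scaling (unadjusted p = 0.0303). These are the 2 members that scaling brings past the threshold. Of the 11 SR protein genes tested 0 were called, with a median of -0.16.

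PRPF and LSm genes were not called in humanized livers, 0 of 10 and 0 of 11, with medians of -0.01 and -0.08. PRPF4, a protein of the U4/U6 snRNP, was at 7.56 ± 1.11 TPM with HuR KD and 9.31 ± 0.907 TPM with LacZ (SD, n = 4 each), without overlap of the groups, at an unadjusted p of 0.0903 in limma. Groups did not overlap in 4 of 71 members, all lower with HuR KD, against 7.16% of all human genes tested, 2.13% higher and 5.03% lower. LSM12 had the smallest p of the LSm genes, at 2.95 ± 1.16 TPM with HuR KD and 4.33 ± 2.4 TPM with LacZ (SD, n = 4 each). The PRPF median turned to 0.06 after median-of-ratios scaling.

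SNRPD3, SNRPN and HNRNPA1P48 were called in all 8 fits that leave out 1 liver. HNRNPA1 was not called without HuR KD replicate 1 or 2 or LacZ replicate 1, 2 or 3 (unadjusted p from 0.0562 to 0.105). SF3B3 was not called without HuR KD replicate 1, 2 or 4 or LacZ replicate 1, 3 or 4 (0.0719 to 0.114), and SRSF9 was called without HuR KD replicate 2 (0.0434).

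The knockdown effects of the livers were then compared in 1 joint limma fit over genes with the same symbol. Of 69 pairs of members, 3 differed at an adjusted p under 0.05, against 5.01% of all 8206 pairs. All 3 moved in opposite directions, which pairs picked for a large difference tend to do, so the directions are no separate result. SNRPD3 fell by 0.82 on the log2 scale in humanized livers, against a log2 fold change of 0.23 for Snrpd3 in WT livers, a difference of -1.05 (standard error 0.23, adjusted p = 0.00908). SRSF9 differed by 0.85 (standard error 0.19, adjusted p = 0.0105), from 0.32 in humanized and -0.53 in WT livers. SF3B3 differed by -0.61 (standard error 0.17, adjusted p = 0.0388), from -0.42 in humanized and 0.18 in WT livers, and Sf3b3 lies at chr8:110810239-110846787 on the minus strand of GRCm38. The joint fit assumes the same variance of a gene in both sets. For SNRPD3 and SF3B3 its standard errors were below those of the humanized changes alone (0.24 and 0.18). The adjusted p of these pairs may therefore be too small. SNRPD3 and SRSF9 differed in all 20 fits that leave out 1 liver, and SF3B3 in 6 of 20. The call of SF3B3 was lost (adjusted p from 0.056 to 0.0883) without humanized HuR KD replicate 1, 2 or 4, humanized LacZ replicate 1, 3 or 4, WT HuR KD replicate 1, 2, 4 or 5, or WT LacZ replicate 3, 4, 5 or 6.

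Each of the 2 genes called in both comparisons, SNRPD3 and SF3B3, is among these 3. At an unadjusted p under 0.05, 9 of 69 pairs differed, against 19.7% of all pairs. The log2 fold changes had the same sign in 26 of 69 member pairs (37.7%) and in 49.7% of all pairs. These signs are those of the deposited TPM, where the humanized median of members was -0.08. After median-of-ratios scaling that median was -0.0037, and signs were not counted again. U2AF2 and SF3A1, whose log2 fold changes were above 0 in both sets, gave differences of -0.05 (standard error 0.13) and -0.09 (standard error 0.14), which did not pass the test. HNRNPA1 differed by -0.52 (standard error 0.20, adjusted p = 0.149). For SNRPN the difference was -1.04 (standard error 0.49, adjusted p = 0.242).

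**Figure D5:**
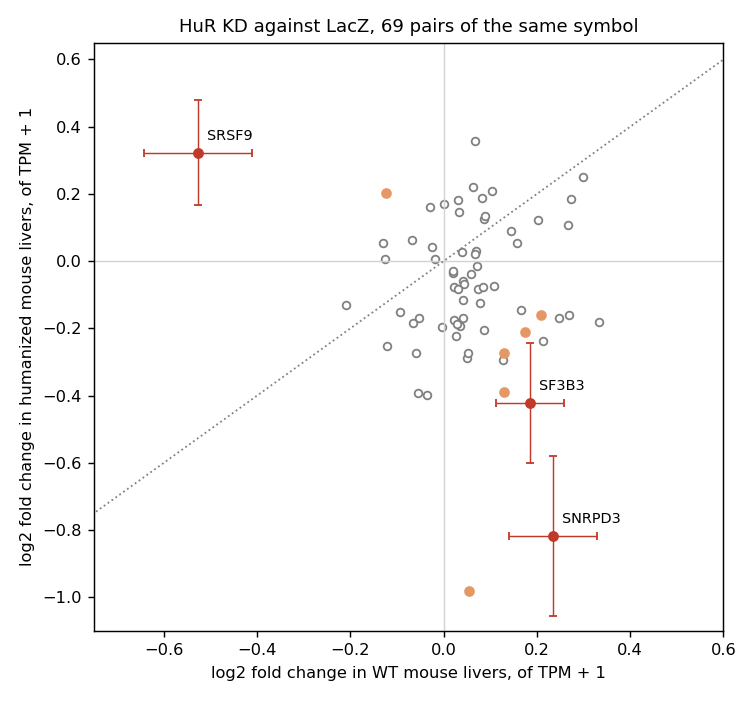
Log2 fold change with HuR KD in WT (horizontal) and humanized (vertical) livers for the 69 pairs of members with the same symbol, with a dotted line of equal change. Red points with standard errors are the 3 pairs that differ at an adjusted p under 0.05, orange points the other 6 at an unadjusted p under 0.05. SNRPD3 and SF3B3 lie at the lower right and SRSF9 at the upper left.

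Other genes of the spliceosome and its partners, 122 human and 120 mouse genes in 7 lists, were tested in the same fits. In WT livers 14 of 117 tested were called higher and 3 lower, with a median log2 fold change of 0.06. In humanized livers 0 of 111 were called higher and 8 lower, with a median of -0.10. Read against the background, the mouse share called higher (12.0%) was above that of all genes and the human share called lower (7.21%) near it. For each list below the background is 9.09% of mouse genes called higher, 6.94% called lower, and 7.87% of human genes called lower.

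The snRNP proteins with other symbols had 5 of 30 mouse genes called higher and 1 lower. Eftud2, the U5 snRNP GTPase that partners Prpf8, was at 7.42 ± 0.385 TPM with HuR KD and 5.96 ± 0.635 TPM with LacZ (SD, n = 6 each), a log2 fold change of 0.28 (adjusted p = 0.0894), without overlap. The U5 snRNP helicase gene Ddx23 fell by 0.26 (adjusted p = 0.0545), also without overlap, at 13.5 ± 0.617 against 16.5 ± 1.11 TPM. In humanized livers 2 of 28 were called, both lower. SNRNP27, a tri-snRNP protein, was at 4.80 ± 1.49 TPM with HuR KD and 8.76 ± 0.997 TPM with LacZ (log2 fold change -0.78, adjusted p = 0.156), and SART3, which recycles the U4 and U6 snRNPs, at 4.40 ± 0.676 and 5.76 ± 0.452 TPM (-0.33, adjusted p = 0.423; SD, n = 4 each).

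Of the Prp19 complex and catalytic spliceosome, 2 of 22 mouse genes were called higher, Plrg1 (0.18, adjusted p = 0.171) and Ppil1 (0.38, adjusted p = 0.293), and 1 of 20 human genes lower, PLRG1 (-0.58, adjusted p = 0.266). The exon junction complex, which splicing leaves on the mRNA, had 2 of 5 mouse genes called higher. These were Eif4a3, at 52.9 ± 4.93 TPM with HuR KD and 44.6 ± 1.42 TPM with LacZ, and Rbm8a, at 24.8 ± 1.45 and 21.3 ± 2.05 TPM (SD, n = 6 each), both without overlap, and 0 of 5 human genes were called. Log2 fold changes were 0.24 for Eif4a3 and 0.22 for Rbm8a, with adjusted p of 0.0917 and 0.159.

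Of the SMN complex and methylosome, which load Sm rings on small nuclear RNA, 2 of 10 mouse genes were called higher and 1 lower. Prmt5, which methylates Sm proteins, had a log2 fold change of 0.20 (adjusted p = 0.258). Gemin7 fell by 0.30 (adjusted p = 0.0768), at 14.1 ± 0.924 TPM with HuR KD and 17.6 ± 1.87 TPM with LacZ (SD, n = 6 each), without overlap. In humanized livers 0 of 12 genes of this list were called, and 1 of 12 was above 0, with a median of -0.21.

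Splicing regulators and hnRNPs with other symbols had 3 of 25 mouse genes called higher (12.0%) and 5 of 23 human genes called lower (21.7%). Over all genes these shares were 9.09% and 7.87%. Ewsr1 (0.20, adjusted p = 0.107) and Esrp2, an epithelial splicing regulator (0.24, adjusted p = 0.111), led in WT livers. In humanized livers PTBP3, a pyrimidine tract binding protein, was at 10.1 ± 1.47 TPM with HuR KD and 14.9 ± 1.93 TPM with LacZ, and SYNCRIP at 10.3 ± 1.07 and 13.8 ± 1.29 TPM (SD, n = 4 each). Both were without overlap, at log2 fold changes of -0.53 and -0.39 and adjusted p of 0.234 and 0.287. Of the SR-related proteins and SR protein kinases 0 of 17 mouse and 0 of 16 human genes were called. Of the LSm partners in mRNA decay, 1 of 8 mouse genes, the decapping enzyme gene Dcp2, was called lower (-0.24, adjusted p = 0.216) and 0 of 7 human genes were called. The nuclear retained RNAs MALAT1 and NEAT1 were called in neither set.

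The annotation of the mouse members differed from that of other genes in ways that the symbols do not use. Of 78 members 46.2% have a transcript annotated as subject to nonsense-mediated decay in GENCODE M21, against 28.6% of 11324 protein-coding genes tested. Among the SR protein genes it was 9 of 10, with Srsf10 the exception. The share was 53.8% of PRPF, 47.4% of hnRNP, 33.3% of SNRP and 30.8% of LSm genes. It was 2 of 2 U2AF genes and 1 of 9 SF3A and SF3B genes. The number of transcripts annotated per gene was not matched. A retained intron transcript was annotated for 73.1% of members and 59.0% of all. The TPM sum all transcripts of a gene, so a shift from a productive to a decayed or retained form within a gene could not be seen.

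By family, the run of 7 or more T was in 8 of 10 SR protein genes, 13 of 19 hnRNP genes and 2 of 9 SF3A and SF3B genes. The pentamer ATTTA, the core of AU-rich elements, which can share T with such a run, was in 67.9% of members and 67.6% of all genes. The 39 members with a run of T had a median log2 fold change of 0.04, with 4 called higher and 1 lower, and the 39 without one had 0.07, with 7 called higher and 0 lower. Over all genes the medians were 0.01 with and 0.03 without a run. The 3′ UTRs of members had a median length of 729.5 bases, against 1011 bases over all.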

How the data were processed

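RNA was measured in 20 livers, with 1 library each. Per the paper's methods the authors made strand-specific total RNA libraries. Reads were trimmed with cutadapt, HISAT2 aligned them (for humanized livers to 1 index of both species), featureCounts counted them on GENCODE v32 (human) or M23 (mouse) genes, and the authors deposited TPM; the builds were GRCh38 and mm10. The formula and gene lengths behind the TPM are not given in the sources used here. As total RNA was sequenced, the TPM can also hold nuclear and unspliced RNA, and how much was not measured.

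From the deposited TPM, log2(TPM + 1) of genes with a mean of at least 1 TPM was compared by limma 3.58.1 in R 4.3.3 (lmFit, eBayes with a trend), each set fitted apart, with Benjamini-Hochberg adjustment over all genes tested (12738 human, 15090 mouse). Following the study, a gene with an unadjusted p under 0.05 was called. Pairs with the same symbol were compared by an interaction term in a joint fit, which assumes the same variance of a gene in both sets, called at an adjusted p under 0.05. Log2 fold changes on this scale understate the change of low genes. Single genes were also compared by two-sided exact permutation over 70 or 924 groupings. The labels number the replicates but do not say that numbers pair mice. Same-numbered livers correlated between -0.249 and 0.206 in their deviations, so they were not paired. The p-values measure the spread between these mice. The paper states that its humanized mice were made with hepatocytes of few donors, and the labels do not give the donor of a liver. Whether the human results hold across donors therefore cannot be told.

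Reads were recovered as whole multiples of TPM steps (Python 3.11.15, numpy 2.4.6, pandas 2.3.3; tolerance 0.02 reads) and solved 100% of genes with values in at least 4 libraries. Sequences and 3′ UTRs came from GENCODE M21 on GRCm38, 1 protein-coding transcript a gene. Human sequences were not used here. Fits and recovery were tested on simulated data. Figures were drawn with matplotlib 3.10.9.

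The members, families, pathway and marker lists were chosen with earlier results of these data known. Genes named are HuR; in each set and family the most abundant member and that with the smallest p; all called members; the pairs called; members under the filter or with copies; and of each pathway list the 2 genes with the smallest p among those called. A gene that this rule names is not reported here. A few further members are given beside them for comparison and were chosen after their values were seen. Alternatives were log2(TPM + 0.1), no filter, a mean of at least 5 TPM, median-of-ratios factors, quantile normalization, TPM rescaled over protein-coding genes, eBayes without trend, a replicate block, leaving out each liver and adjusted p-values. Voom on recovered reads and leaving out the livers that stood apart were added after seeing the data.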

Additional observations from a re-analysis of the deposited data

Results flagged for a closer look

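In 18 of the 136 groups of genes given by name, 1 liver stood far from the others by Dixon's criterion, which chance alone does in about 1 of 20 groups. Among the members, Srsf9 in WT HuR KD replicate 6 was at 23.7 TPM, above the other 5 HuR KD livers. U2af2 in WT HuR KD replicate 3 was at 27.2 TPM, the lowest of its group and still above all LacZ livers. Snrpd2 in WT HuR KD replicate 4 was at 13.4 TPM, the highest of its group. Sf3b5 was highest in WT HuR KD replicate 6 at 8.7 TPM and in WT LacZ replicate 2 at 7.06 TPM. Lsm8 in WT HuR KD replicate 6 was lowest at 2.06 TPM, Lsm1 in WT HuR KD replicate 3 lowest at 10.4 TPM, and Snrpn in WT LacZ replicate 2 was listed at 0. WT LacZ replicate 2 was the lowest of its group in Snrpe (17.3 TPM) and Snrpg (3.24 TPM) and the highest in Lsm4 (50.6 TPM), Sf3a2 (15.3 TPM) and Prpf31 (9.66 TPM), genes named in part because of this liver, and Lsm4 was highest in WT HuR KD replicate 6 at 35.1 TPM. PRPF8 in humanized HuR KD replicate 4, at 0.00795 TPM, was the only liver not listed at 0. Of the other splicing genes, PTBP3 in humanized LacZ replicate 2 was lowest at 12.0 TPM, Esrp2 in WT HuR KD replicate 6 highest at 77.4 TPM, and Dcp2 in WT LacZ replicate 1 highest at 11.4 TPM. WT HuR KD replicate 6 and WT LacZ replicate 2, the WT libraries with the fewest reads, hold 12 of these 18 values.

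The knockdown effect differed between humanized and WT livers in 3 pairs by the interaction term. The difference of the log2 fold changes, humanized minus WT, was -1.05 for SNRPD3, 0.85 for SRSF9 and -0.61 for SF3B3. Species, host, shRNA and read length cannot be told apart in these differences.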

How the results depend on the processing

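In WT livers the counts of members called were 7 to 21 in all, 6 to 20 higher and 1 to 2 lower when each liver was left out in turn. Without the 2 livers with the fewest reads they were 27, 25 and 2, and voom on recovered reads called 17 higher. Over all genes 1021 to 1873 were called higher when each liver was left out, 2323 without these 2 livers and 1848 in voom. At an adjusted p under 0.05, 2 were called, 2 higher and 0 lower, and over the alternatives this count was 0 to 7, with 0 under eBayes without trend. In humanized livers leaving out each liver gave 3 to 6 in all, 0 to 1 higher and 3 to 5 lower. EBayes without trend and voom on recovered reads each called 3, all 3 lower, and at an adjusted p under 0.05 the counts were 0 and 0. At that threshold 1 member, HNRNPA1P48, passed with median-of-ratios factors, quantile normalization, rescaling over protein-coding genes, without LacZ replicate 2 and without the 2 livers that deviate together. Called higher were 1 without a filter and 2 under each of median-of-ratios factors, quantile normalization and rescaling over protein-coding genes. With the replicate number as a block, which the correlations do not bear out as a pairing, 3 members were called in humanized livers, all 3 lower, and 10 in WT livers, 9 higher and 1 lower, with 0 at an adjusted p under 0.05 in either set. In neither set does every liver correlate best with its own number. Pairs called were 2 to 4 when each liver was left out, 9 at an unadjusted p under 0.05 and 8 without the 4 livers that stood apart.

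Over the alternatives, 630 single-gene values kept their direction and side of the threshold, 50 lost and 12 gained the call, and 12 values not called changed sign. Of family medians 269 moved by less than the spread between livers and 11 by more. Of the differences between sets 78 held and 15 lost the call, all 15 of SF3B3, the replicate block among them, with 0 reversed. Adjusted calls over all genes ranged from 17 to 762 in WT and 0 to 172 in humanized livers, against 134 and 27 as reported, and pairs called from 283 to 1349, against 411. Depth limits low members in both sets: SNRPN and HNRNPA1P48 rest on as few as 9 reads in a humanized liver, and in WT LacZ replicate 2 Snrpg rests on 3 and Lsm5 on 2.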
